A study of Homo sapiens and Mus musculus with 27 samples.

Results

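Collagen chains, matrix glycoproteins, small proteoglycans and the collagen chaperone SERPINH1 were followed as a set of 35 genes through 3 RNA sequencing datasets. The genes were taken by name, and all 35 were found among the 78932 identifiers of each human count table and, as mouse orthologs of the same symbol, among the 25239 symbols of the mouse table. After a filter on low counts, 25 of the 19461 genes tested in HCC1937 were members, as were 25 of the 16498 tested for MDA-MB-231 and 35 of the 15846 tested for 4T1. HCC1937 and MDA-MB-231 are human breast cancer cell lines, and 4T1 is a mouse mammary carcinoma line that was implanted into Balb/c mice, so that the 4T1 libraries hold RNA of carcinoma cells and of the surrounding host tissue. HCC1937 cells were given vehicle, 10 µM TM or 10 µM AMD3100, an antagonist of the chemokine receptor CXCR4. MDA-MB-231 cells were given vehicle, 10 nM bortezomib (a proteasome inhibitor) plus 10 µM TM, or 10 nM bortezomib plus 10 µM AMD3100. Tumour-bearing mice were given vehicle, bortezomib at 1 mg/kg every 4 days plus TM at 0.05 mg/ml in the drinking water, or the same bortezomib schedule plus AMD3100 at 5 mg/kg every 2 days. The labels do not expand TM, and no group received bortezomib alone, so the part of bortezomib and that of its partner cannot be told apart. Each of the 9 groups had 3 libraries, 27 in all.

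Collagens are built from 3 chains wound into a triple helix in the endoplasmic reticulum, where SERPINH1 (HSP47) binds and stabilises the folded procollagen, and are then secreted and assembled outside the cell. Fibrillar collagens give connective tissue its strength, type IV collagen and laminins form the sheet-like basement membrane under epithelia and around vessels, and glycoproteins such as fibronectin, tenascin-C and thrombospondins tie cells to these networks. In carcinomas most fibrillar collagen is made by fibroblasts of the stroma, while the carcinoma cells themselves commonly make laminins and type IV collagen.

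HCC1937 libraries held 35981504 to 43973262 counts each, MDA-MB-231 libraries 40389469 to 50283398, and tumour libraries 38407536 to 50735374. HCC1937 AMD3100 replicate 1 stood apart from the other 8 libraries of its line: 19.9% of its counts were mitochondrial against 10.5% to 11.6%, it had counts for 20639 identifiers against 29335 to 31770, and the member genes COL6A1 and COL13A1 had 0 counts in it. HCC1937 comparisons are therefore given with and without this library. Some label fields of 4T1 vehicle replicate 1 give the human species and MDA-MB-231, but it is titled as 4T1 and its counts stand in the mouse table, so it was used as a 4T1 tumour. The titles call the replicates biological without saying whether they came from separate cultures or animals. The p-values therefore set differences against the spread between these libraries, which may not be that between cultures or animals. Levels are given as CPM, counts scaled to a library of 1000000 counts after TMM normalisation. In every group 8 of 9 fibroblast markers were under 1 CPM in MDA-MB-231 and 6 of 9 in HCC1937, whereas the tumours expressed all 9, with summed levels of 296.8 to 483.1 CPM.

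Without treatment the human lines made different matrix genes. To compare genes with one another, levels are given here as CPM per kilobase of gene length, as means over 3 vehicle libraries. In MDA-MB-231, LAMB3, the beta chain of the epithelial laminin-332, had the highest level at 147 CPM per kilobase, followed by SERPINH1 at 48.4, the transmembrane collagen COL13A1 at 16.1, the microfibril-forming COL6A1 at 12.8, the adhesion glycoprotein THBS1 at 12.7 and COL4A2 at 9.48. In HCC1937, SERPINH1 led at 85.2 CPM per kilobase, ahead of the elastic-fibre glycoprotein FBLN1 at 77.4, COL1A1 at 15.5, LAMB3 at 14.9 and COL5A1 at 12.8. COL1A2, which pairs with COL1A1 in type I collagen, and COL3A1 were near 0 in both lines, unlike COL1A1 in HCC1937. Neither COL1A2 nor COL3A1 exceeded 22 counts in a human library, and the small proteoglycans BGN and LUM never exceeded 6. POSTN had no counts in HCC1937, and THBS2, DCN and LUM had none in MDA-MB-231. FN1 (fibronectin) was at 60.9 ± 3.65 CPM (SD, n = 3) in untreated MDA-MB-231 and at 0.782 ± 0.172 CPM in untreated HCC1937. In the 4T1 tumours all 35 genes passed the filter. Together they took 2.42% of the TMM-scaled CPM in vehicle tumours, against 0.194% in untreated HCC1937 and 0.196% in untreated MDA-MB-231. By total-count CPM, which gives the share of counts, their sums were 23730 in vehicle tumours, 1932 in untreated HCC1937 and 2337 in untreated MDA-MB-231. These shares are of unlike totals. By gene symbol, 0% of counts in vehicle tumours were mitochondrial, against 11.1% to 11.6% in untreated HCC1937 and 3.94% to 4.06% in untreated MDA-MB-231.

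**Figure D1:**
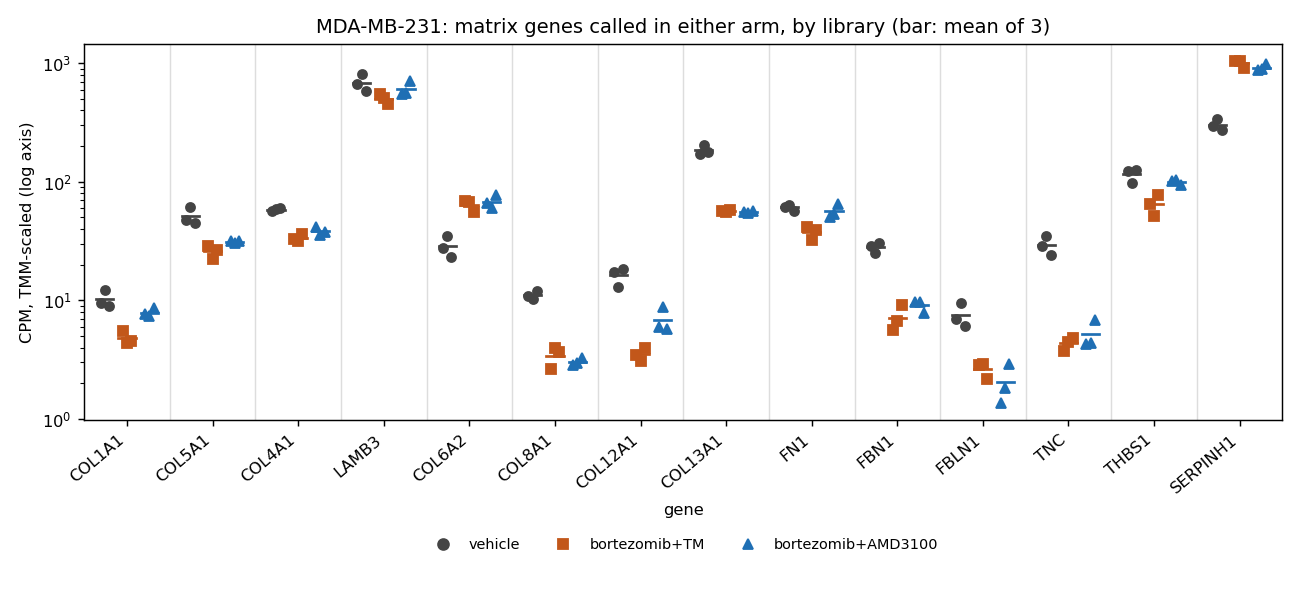
CPM on a log axis of the 14 members called in either arm of MDA-MB-231, 1 point per library with a bar at the group mean, for vehicle, bortezomib plus TM and bortezomib plus AMD3100. SERPINH1 and COL6A2 lie above their vehicle points in both treated groups, and TNC, FBN1, COL12A1, COL8A1 and COL13A1 lie below them.

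In MDA-MB-231, bortezomib plus TM lowered 12 and raised 2 of the 25 tested members, by edgeR's quasi-likelihood test at a Benjamini-Hochberg adjusted p under 0.05. With bortezomib plus AMD3100, 8 fell and 2 rose. Among the called members TNC, COL12A1, FBN1, COL13A1 and COL8A1 had the largest falls with TM, and SERPINH1 and COL6A2 rose in both arms. This stood on a background in which 51.7% of all tested genes were called in the TM arm (27.6% lower, 24.1% higher) and 46.5% in the AMD3100 arm (24.2% lower, 22.3% higher). The median log2 change of the tested members was -0.64 in the TM arm and -0.16 in the AMD3100 arm, beside -0.09 and -0.05 over all tested genes. Both arms were compared with the same vehicle libraries, so their calls are not independent of each other. Relative scaling matters here, because TMM factors were 1.143 to 1.25 in vehicle and 0.8735 to 0.9454 in treated libraries. With scaling by total count alone, a setting chosen after seeing the data, the median over all genes moved from -0.09 to -0.51 in the TM arm and from -0.05 to -0.41 in the AMD3100 arm, and each of the 14 and 10 called members kept its call and direction. Under that scaling 6 more members were called lower with TM (COL4A2, COL6A1, COL7A1, COL16A1, COL17A1 and SPARC) and 8 more with AMD3100 (COL1A1, LAMB3, COL6A1, COL16A1, COL17A1, FN1, THBS1 and SPARC). The higher share of all called genes then went from 46.7% to 23.5% in the TM arm and from 47.9% to 25% in the AMD3100 arm. By libraries, 15 members lay wholly below vehicle and 3 wholly above it with TM, beside 32.1% and 26.3% of all tested genes (58.4% in all). With AMD3100, 10 lay wholly below and 2 wholly above, beside 31.1% and 26.8% (57.9% in all).

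SERPINH1, the procollagen chaperone of the endoplasmic reticulum, rose in both arms. It was at 294.6, 341.6 and 275.7 CPM in vehicle, at 1040, 1043 and 906.1 with bortezomib plus TM, and at 880.9, 886.5 and 983.4 with bortezomib plus AMD3100. Every treated library was above every vehicle library, and the treated arms overlapped. The change was 3.28-fold with TM (log2 1.71 ± 0.11 SE, adjusted p = 2.56e-07) and 3.02-fold with AMD3100 (1.59 ± 0.11, adjusted p = 5.31e-07). SERPINH1 lies at chr11:75562056-75572783 on the plus strand (GENCODE 29, GRCh38). SERPINH1 had 2 RefSeq promoter windows. The window shown was picked because the 250 bases before its RefSeq gene start hold a heat shock element-type motif. Heat shock factors bind this class of sequence. Capitals mark TTCNNGAANNTTC, which was searched on both strands and found 76 to 64 bases before that start. By the GENCODE span above, the motif lies within the gene. The window is chr11:75562003-75562252, plus strand, RefSeq on GRCh38.p14.

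SERPINH1: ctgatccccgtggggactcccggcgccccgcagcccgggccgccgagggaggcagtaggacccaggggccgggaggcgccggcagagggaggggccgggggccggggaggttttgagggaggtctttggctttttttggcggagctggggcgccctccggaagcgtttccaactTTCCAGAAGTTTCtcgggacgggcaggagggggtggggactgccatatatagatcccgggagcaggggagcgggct

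The motif occurred in 172 of 35116 RefSeq windows of 250 bases before to 50 after a gene start (0.49%), and in 1 of the 27 members that had a window. Windows for COL1A1, COL1A2, COL3A1, COL5A2, COL6A1, COL8A1, DCN and LUM were not used here. A match of letters is a description and says nothing of binding in these cells.

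**Figure D2:**
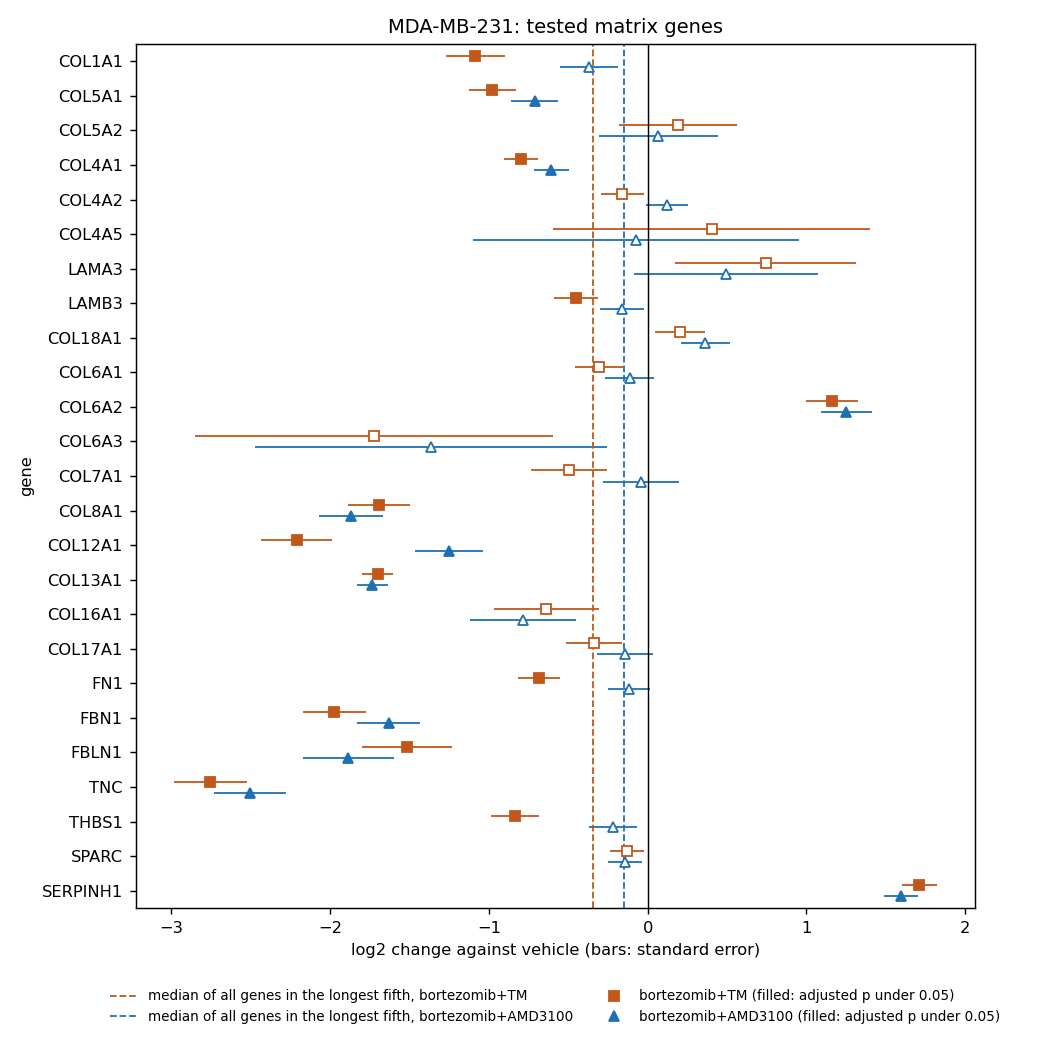
Log2 change with its standard error for the 25 tested members in MDA-MB-231, bortezomib plus TM and bortezomib plus AMD3100 each against the same vehicle libraries. Filled symbols are called, and dashed lines mark the median of all tested genes in the longest of 5 gene-length classes. Most members lie left of 0 with TM, SERPINH1 and COL6A2 lie right of 0 in both arms, and FN1, THBS1 and COL1A1 lie nearer to 0 with AMD3100 than with TM.

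Of the fibrillar collagens, 2 of the 3 tested fell with TM and 1 with AMD3100. COL5A1, the type V chain that helps set fibril diameter, was at 47.3, 61.7 and 44.9 CPM in vehicle, 29, 22.3 and 26.8 with TM, and 31.8, 30.4 and 31.8 with AMD3100. It fell by 0.98 ± 0.15 log2 units with TM (adjusted p = 0.000183) and by 0.71 ± 0.15 with AMD3100 (adjusted p = 0.002), with no overlap with vehicle in either arm. COL1A1, the main type I chain, was at 9.42, 12.2 and 8.96 CPM in vehicle, 5.51, 4.35 and 4.53 with TM, and 7.72, 7.32 and 8.59 with AMD3100. All treated libraries were below all vehicle libraries, but only the TM arm was called (log2 -1.09 ± 0.19, adjusted p = 0.000425), with -0.37 ± 0.18 and adjusted p = 0.115 for AMD3100. Under total-count scaling COL1A1 was called lower with AMD3100 too (-0.73, adjusted p = 0.00379). COL5A2, the partner chain of COL5A1, had 24 to 66 counts per library and was not called in either arm.

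In the basement membrane group the type IV chains separated. COL4A1 was at 56.5, 58.4 and 59.95 CPM in vehicle, 32.7, 31.95 and 35.99 with TM, and 41.5, 35.8 and 37.5 with AMD3100. It fell by 0.80 ± 0.11 log2 units with TM (adjusted p = 8.78e-05) and by 0.61 ± 0.11 with AMD3100 (adjusted p = 0.000757), with no overlap. COL4A2, whose chain joins COL4A1 chains in the common type IV trimer, was at 173.9, 223.8 and 163.5 CPM in vehicle, 191.8, 147.2 and 163.3 with TM, and 199.9, 191.9 and 219.1 with AMD3100. Its groups overlapped and it was not called in either arm (log2 -0.16 ± 0.13, adjusted p = 0.345, and 0.12 ± 0.13, adjusted p = 0.485), but under total-count scaling COL4A2 was called lower with TM (-0.58, adjusted p = 0.00148). LAMB3 was at 663.4, 805.5 and 582.5 CPM in vehicle and 545.8, 506.5 and 451.2 with TM, a fall of 0.45 ± 0.14 log2 units (adjusted p = 0.0173) that missed the threshold without vehicle replicate 2 (log2 -0.31, adjusted p = 0.072) or without bortezomib plus TM replicate 3 (-0.36, adjusted p = 0.0502). With AMD3100 LAMB3 was at 552.9, 565.7 and 714.0 CPM and was not called (adjusted p = 0.36). COL18A1, the heparan sulfate collagen that holds the endostatin fragment, averaged 59.7, 68.7 and 76.9 CPM in the 3 groups and was not called in the fit of all libraries. Without the low-count filter it was called higher with AMD3100 (log2 0.37, adjusted p = 0.0408), and without vehicle replicate 2 it was called higher in both arms (log2 0.38, adjusted p = 0.0495, and 0.54, adjusted p = 0.0114). In its exons, 16.4% of bases are shared with SLC19A1 on the opposite strand, and whether counting used strand was not given in the sources used here. COL4A5 and LAMA3, at most 31 and 18 counts in a library, were not called.

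COL4A1 and COL4A2 lie head to head on chromosome 13, COL4A1 at chr13:110148963-110307233 on the minus strand and COL4A2 at chr13:110305812-110513209 on the plus strand (GENCODE 29, GRCh38). No exon base of COL4A1 is shared with another gene, and 0.492% of those of COL4A2 are, with antisense genes. The RefSeq starts used here are separated by 126 bases, which lie upstream of both genes by these starts only. By the GENCODE spans above, the genes overlap, and these bases lie within COL4A2 and partly within COL4A1. They are shown because they lie between the RefSeq starts of the pair. COL4A1 was called lower in both arms, while the call of COL4A2 depended on the scaling. The stretch is chr13:110307158-110307283 on the plus strand of GRCh38.p14, has 80.2% G and C, and holds 1 CCAAT, marked in capitals, searched on both strands.

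COL4A1-COL4A2: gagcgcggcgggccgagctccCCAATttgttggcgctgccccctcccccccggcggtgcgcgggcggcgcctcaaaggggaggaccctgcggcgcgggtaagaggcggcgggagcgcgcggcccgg

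CCAAT is common: it was in 34.6% of all promoter windows and in 10 of the 27 members with a window.

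Ratios of counts within a library do not depend on how libraries are scaled. COL4A1 per COL4A2 count was 0.325, 0.261 and 0.367 in MDA-MB-231 vehicle, 0.170, 0.217 and 0.220 with bortezomib plus TM, and 0.208, 0.187 and 0.171 with bortezomib plus AMD3100. All 6 treated libraries were below all 3 vehicle libraries, and the arms overlapped. COL6A2 per COL6A1 count was 0.391, 0.415 and 0.401 in vehicle, 1.04, 1.22 and 1.10 with TM, and 1.12, 0.955 and 1.04 with AMD3100, which is 2.78 and 2.58 times the vehicle mean with no overlap. In each of these 4 comparisons the exact two-sided permutation p was 0.1, the smallest that 3 against 3 libraries allow, and it was 0.231 after Benjamini-Hochberg adjustment over the 30 ratio comparisons made in the 3 datasets, which were chosen after seeing the data.

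**Figure D3:**
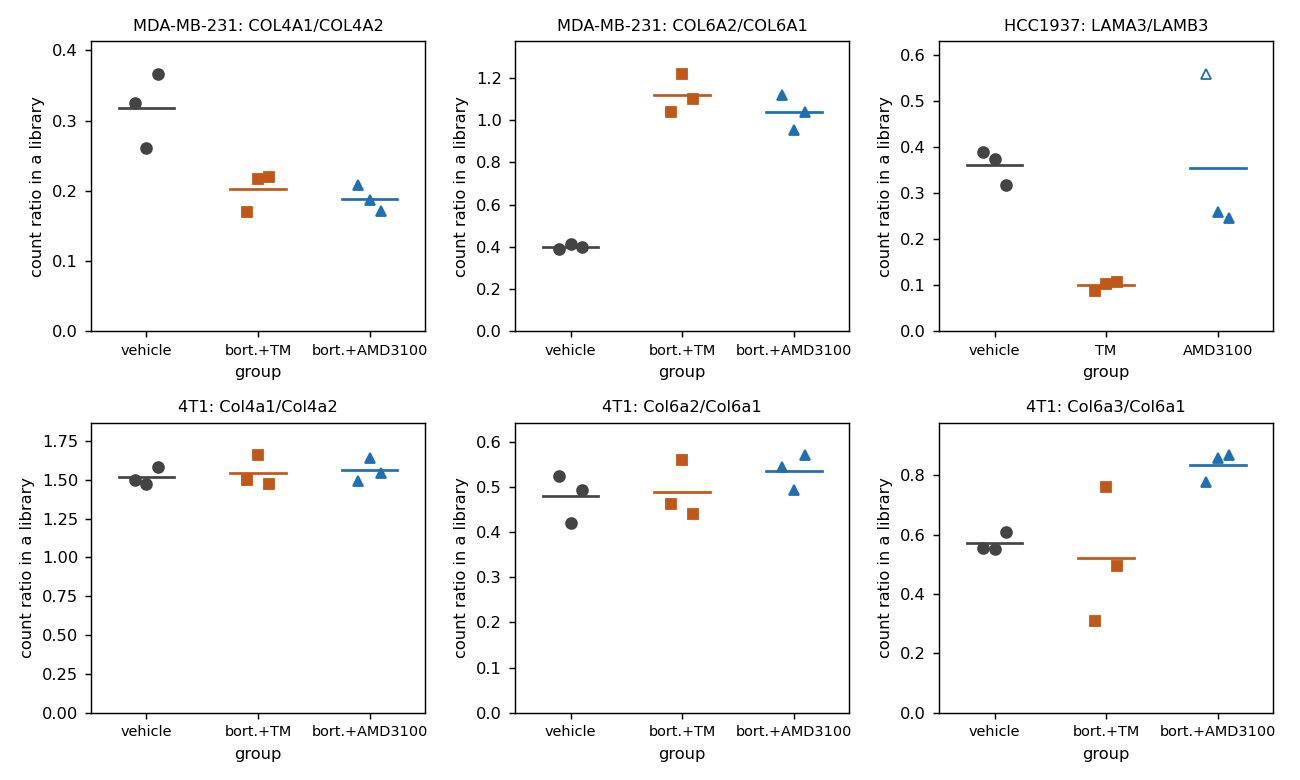
Ratio of the counts of 2 chains within a library, 1 point per library with a bar at the group mean, in 6 panels by dataset and chain pair (open triangle, HCC1937 AMD3100 replicate 1). The COL6A2 to COL6A1 ratio in MDA-MB-231 is at or above 0.955 in treated libraries and at or below 0.415 in vehicle, while the COL4A1 to COL4A2 ratio there is lower in treated libraries.

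Of the 9 other collagens tested, 3 fell and 1 rose in each arm. COL6A2, a chain of the pericellular type VI microfibril, was at 27.6, 34.7 and 23.2 CPM in vehicle, 68.5, 67.5 and 55.2 with TM, and 66.0, 60.5 and 76.8 with AMD3100. It rose 2.24-fold with TM (log2 1.16 ± 0.16, adjusted p = 9.09e-05) and 2.38-fold with AMD3100 (1.25 ± 0.16, adjusted p = 6.63e-05). COL6A1, its neighbour on chromosome 21 (COL6A1 at chr21:45981737-46005050, COL6A2 at chr21:46098097-46132849, both on the plus strand) and its partner in the type VI monomer, did not follow: it was at 70.6, 83.7 and 57.8 CPM in vehicle, 65.9, 55.3 and 50.4 with TM, and 59.1, 63.4 and 73.7 with AMD3100. COL6A1 was not called with all libraries (adjusted p = 0.116 and 0.576), but it was called lower with TM without vehicle replicate 3 (log2 -0.43, adjusted p = 0.0392) and lower in both arms under total-count scaling (-0.72, adjusted p = 0.000743, and -0.47, adjusted p = 0.0108). COL6A3, the third chain, had at most 28 counts in a library.

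COL13A1, a transmembrane collagen of cell junctions, was at 172.3, 204.2 and 178.0 CPM in vehicle, 56.8, 55.4 and 58.4 with TM, and 55.7, 54.2 and 56.8 with AMD3100. It fell by 1.70 ± 0.10 log2 units with TM (adjusted p = 1.26e-07) and 1.73 ± 0.10 with AMD3100 (adjusted p = 1.38e-07), and no treated library was above 58.4 CPM. COL12A1, which binds to the surface of type I fibrils, was at 17.4, 13.04 and 18.3 CPM in vehicle, 3.46, 3.09 and 3.97 with TM, and 5.93, 8.80 and 5.75 with AMD3100. Its fall was 2.21 ± 0.22 log2 units with TM (adjusted p = 7.79e-06) and 1.25 ± 0.21 with AMD3100 (adjusted p = 0.000533), and the treated arms did not overlap. COL8A1, a short-chain network collagen of vessel walls, was at 10.9, 10.3 and 12 CPM in vehicle, 2.62, 4.00 and 3.66 with TM, and 2.85, 2.97 and 3.26 with AMD3100, with log2 changes of -1.69 ± 0.20 and -1.87 ± 0.20 (adjusted p = 2.36e-05 and 1.51e-05). The anchoring-fibril collagen COL7A1, the fibril-associated COL16A1 and the hemidesmosomal COL17A1 averaged 3.17, 1.72 and 4.38 CPM in vehicle and were not called with all libraries. COL16A1 was called lower with AMD3100 without bortezomib plus AMD3100 replicate 3 (log2 -1.105, adjusted p = 0.0277).

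Of the 6 tested glycoproteins, 5 fell with TM and 3 with AMD3100. TNC (tenascin-C, an anti-adhesive glycoprotein of remodelling matrix) was at 28.8, 34.8 and 24.1 CPM in vehicle, 3.76, 4.43 and 4.80 with TM, and 4.24, 4.35 and 6.87 with AMD3100. It fell to 0.148 of the vehicle mean with TM (log2 -2.75 ± 0.23, adjusted p = 1.82e-06) and to 0.176 with AMD3100 (-2.50 ± 0.23, adjusted p = 4.39e-06). FBN1 (fibrillin-1, the core of elastic microfibrils) was at 28.95, 25.05 and 30.4 CPM in vehicle, 5.65, 6.63 and 9.22 with TM, and 9.75, 9.65 and 7.85 with AMD3100. The fall of FBN1 was 1.97 ± 0.20 log2 units with TM (adjusted p = 7.84e-06) and 1.63 ± 0.20 with AMD3100 (adjusted p = 3.87e-05). FBLN1 (fibulin-1) was at 6.99, 9.52 and 6.05 CPM in vehicle, 2.82, 2.90 and 2.16 with TM, and 1.37, 1.82 and 2.92 with AMD3100, with log2 changes of -1.52 ± 0.28 and -1.88 ± 0.29 (adjusted p = 0.000815 and 0.000241). None of these 3 genes had a treated library inside the vehicle range. In exons of TNC 1.34% of bases, and in those of THBS1 and SPARC 7.58% and 7.89%, are shared with neighbouring genes.

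FN1 and THBS1 were called in the TM arm only with TMM scaling, and in both arms with total-count scaling, where the AMD3100 changes were -0.48 for FN1 (adjusted p = 0.00824) and -0.59 for THBS1 (adjusted p = 0.016). FN1 was at 61.5, 64.3 and 57.0 CPM in vehicle, 41.9, 32.4 and 39.4 with TM, and 50.6, 53.0 and 64.9 with AMD3100. It fell by 0.68 ± 0.13 log2 units with TM (adjusted p = 0.00115) and was not called with AMD3100 (-0.12 ± 0.13, adjusted p = 0.5), where its libraries overlapped vehicle. THBS1 (thrombospondin-1, an anti-angiogenic adhesion glycoprotein) was at 123.7, 97.6 and 126.4 CPM in vehicle, 65.2, 51.7 and 78.0 with TM, and 102.4, 102.6 and 93.8 with AMD3100. It fell by 0.83 ± 0.15 log2 units with TM (adjusted p = 0.000618), against -0.22 ± 0.15 with AMD3100 (adjusted p = 0.253). SPARC, a collagen-binding matricellular protein, was at 36.8, 39.6 and 37.4 CPM in vehicle and 33.2 to 35.9 in the 6 treated libraries. These did not overlap, yet SPARC was not called (log2 -0.13, adjusted p = 0.331, and -0.14, adjusted p = 0.291). The small proteoglycans were not tested in this line.

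The treated arms were then compared with each other. No member and no gene of the whole table was called (0% of tested genes by edgeR, with 1464 genes at an unadjusted p under 0.05 and 70 called by DESeq2), so the calls made in the TM arm only are not shown to differ between partners. In 8 of the 25 tested members every AMD3100 library was above every TM library, and in none was every one below, beside 6.85% and 6.56% of all tested genes (13.4% in all). These were COL1A1, COL5A1, COL4A2, LAMB3, COL7A1, COL12A1, FN1 and THBS1. COL12A1 had the largest of these differences, 0.96 log2 units (adjusted p = 0.344 by edgeR and 0.02 by DESeq2), and THBS1 was called without bortezomib plus TM replicate 3 (0.75, adjusted p = 0.0326). The shares over all tested genes are not matched for gene length. Of 5 gene-length classes, the shortest had a median AMD3100 against TM log2 difference of -0.115. The longest, which held 16 of the members, had 0.149.

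Matrix genes are long, and in this line the change with treatment varied with gene length. Over all tested genes split into 5 equal classes by summed exon length, the median log2 change with TM was 0.09 in the shortest class and -0.34 in the longest, where 35.7% of genes were called lower. With AMD3100 these medians were -0.02 and -0.15, with 27.9% called lower in the longest class. Of the 25 tested members 16 fell in the longest class. Their median log2 change was -0.91 with TM, with 13 of the 16 under the median of that class and 10 called lower, and -0.66 with AMD3100, with 11 under the class median and 7 called lower. When the trend with length was taken out of each library, a step chosen after seeing the data, 10 members remained called lower and 2 higher with TM. FN1 (log2 -0.27, adjusted p = 0.228) and LAMB3 (-0.39, adjusted p = 0.0511) were no longer called. The number called with AMD3100 stayed at 10. Why change varied with length was not tested.

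Marker levels in MDA-MB-231 also differed between the groups. The summed fibroblast list was 4.231 to 5.511 CPM in vehicle, 13.99 to 15.06 with TM and 14.68 to 16.74 with AMD3100, and in each group 8 of its 9 genes were under 1 CPM. The summed level of the mesenchymal genes VIM, ZEB1, CDH2 and AXL was 2002 to 2200 CPM in vehicle, 1360 to 1416 with TM and 1480 to 1529 with AMD3100. In each group 1 of these 4 genes was under 1 CPM, and 3 were tested. With TM 1 was called lower and 0 higher, and with AMD3100 1 lower and 1 higher, beside 51.7% and 46.5% of all tested genes. The median log2 changes of the 3 were -0.09 and 0.02, so the lower sum does not stand for each gene. The part of either list in the matrix results was not tested. Summed over all 35 members, the level was 1957, 2143 and 2301 CPM in the 3 groups, and SERPINH1 and LAMB3 made up most of it. This order of vehicle against treated reversed for total-count CPM, which gave 2337 in vehicle, 1915 with TM and 2142 with AMD3100.

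**Figure D4:**
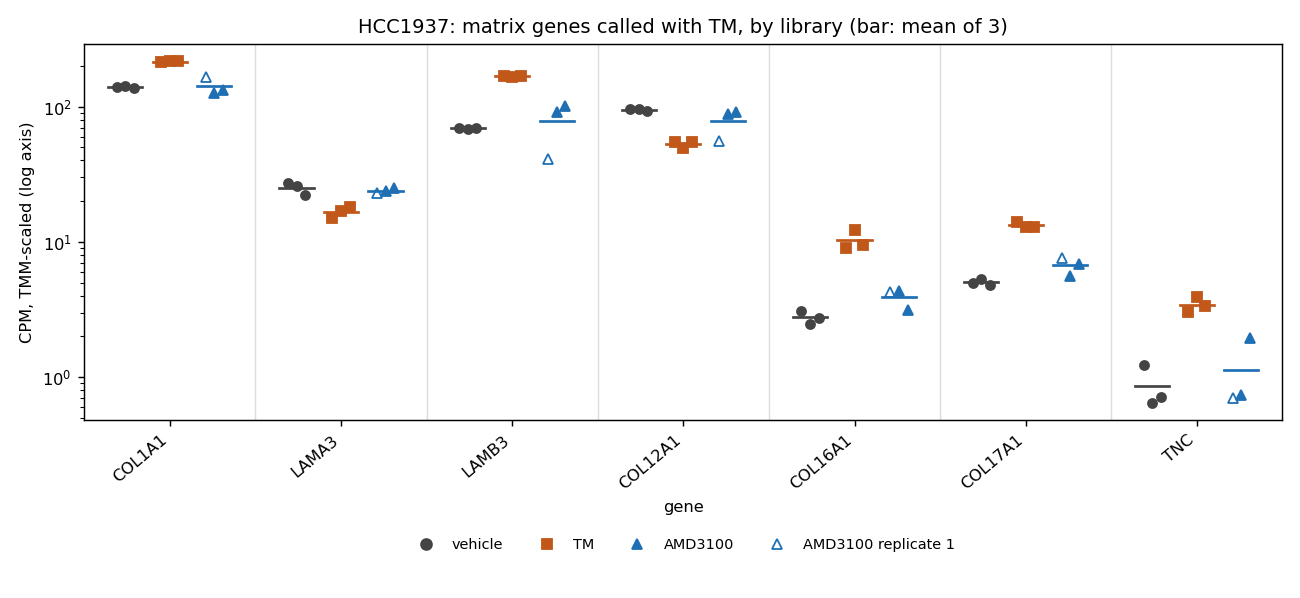
CPM on a log axis of the 7 members called with TM in HCC1937, 1 point per library with a bar at the group mean, for vehicle, TM and AMD3100, with AMD3100 replicate 1 as an open triangle. COL1A1, LAMB3, COL16A1, COL17A1 and TNC lie higher and LAMA3 and COL12A1 lower in the TM libraries than in vehicle, and AMD3100 replicate 1 lies below its group mates for LAMB3 and COL12A1.

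In HCC1937, TM alone raised 5 and lowered 2 of the 25 tested members in the fit of all 9 libraries, where 7.07% of all tested genes were called (2.96% higher, 4.11% lower). COL1A1, LAMB3, COL16A1, COL17A1 and TNC rose, and LAMA3 and COL12A1 fell. By libraries, 10 members lay wholly above vehicle and 11 wholly below it, beside 25.2% and 26.4% of all tested genes (51.6% in all). Without AMD3100 replicate 1, which is not part of this comparison but enters the estimate of spread, 10 of 26 tested members rose and 7 fell, beside 40.8% of all tested genes called (19.4% higher, 21.4% lower). The median log2 change was 0.02 over the members and 0.00 over all genes (-0.00374). Among all called genes the higher share was 41.9%, and 52.3% with total-count scaling.

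Both laminin-332 chains measured here changed, in opposite directions. LAMB3 was at 69.5, 68.8 and 69.5 CPM in vehicle, 169.3, 165.6 and 167.7 with TM, and 40.9, 91.4 and 101.4 in AMD3100 replicates 1, 2 and 3. It rose 2.42-fold with TM (log2 1.27 ± 0.28, adjusted p = 0.0277, and 1.04e-17 without AMD3100 replicate 1). LAMA3, the alpha chain of the same laminin, was at 27.1, 25.8 and 22.2 CPM in vehicle, 15.01, 16.99 and 18.2 with TM, and 22.9, 23.7 and 24.9 with AMD3100. It fell by 0.58 ± 0.12 log2 units with TM (adjusted p = 0.0226, and 4.81e-06 without AMD3100 replicate 1). The LAMA3 per LAMB3 count was 0.389, 0.375 and 0.319 in vehicle and 0.0887, 0.103 and 0.108 with TM, with no overlap and an exact permutation p of 0.1 (0.231 adjusted over the 30 ratios). In AMD3100 replicates 2 and 3 the ratio was 0.259 and 0.246, between these ranges, and in replicate 1 it was 0.560. COL4A1 per COL4A2 count was 0.308, 0.307 and 0.319 in vehicle and 0.357, 0.351 and 0.362 with TM, 1.15 times the vehicle mean. These did not overlap (exact permutation p = 0.1, 0.231 adjusted), and the direction was opposite to that in MDA-MB-231. With AMD3100 this ratio was 0.471, 0.307 and 0.284 and overlapped vehicle.

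COL1A1 was at 138.8, 141.6 and 137.7 CPM in vehicle, 211.8, 217 and 216.6 with TM, and 166.5, 126.9 and 132.3 with AMD3100. It rose 1.54-fold with TM (log2 0.63 ± 0.11, adjusted p = 0.0126, and 1.44e-12 without AMD3100 replicate 1), while COL1A2, its partner in type I collagen, had at most 22 counts in a library. COL5A1 was at 140.9, 141.6 and 146.1 CPM in vehicle and 134.8, 138.8 and 134.1 with TM, and was not called with or without that library. COL16A1, a fibril-associated collagen, was at 3.09, 2.47 and 2.74 CPM in vehicle, 8.99, 12.3 and 9.46 with TM, and 4.26, 4.36 and 3.16 with AMD3100. COL17A1, the transmembrane collagen of hemidesmosomes, where laminin-332 is also bound, was at 5.00, 5.34 and 4.76 CPM in vehicle, 13.98, 12.8 and 12.9 with TM, and 7.57, 5.57 and 6.91 with AMD3100. These rose 3.70-fold and 2.63-fold with TM (log2 1.89 ± 0.21 and 1.39 ± 0.16, adjusted p = 0.00172 for each), and their calls held when any 1 of the 6 vehicle and TM libraries, or AMD3100 replicate 1, was left out. COL12A1 was at 96.1, 95.8 and 93.0 CPM in vehicle, 54.4, 49.2 and 54.3 with TM, and 55.8, 88.7 and 91.1 with AMD3100, and fell by 0.85 ± 0.17 log2 units with TM (adjusted p = 0.021, and 3.56e-13 without AMD3100 replicate 1). It was not called with the trend of change on gene length taken out (log2 -0.80, adjusted p = 0.0772).

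Among the glycoproteins, TNC was at 1.24, 0.646 and 0.715 CPM in vehicle, 3.04, 3.88 and 3.34 with TM, and 0.705, 0.736 and 1.94 with AMD3100. TNC rose 3.94-fold with TM (log2 1.98 ± 0.47, adjusted p = 0.0381, and 4.31e-06 without AMD3100 replicate 1). FBLN1, an elastic-fibre glycoprotein, was at 574.8, 542.3 and 574 CPM in vehicle, 496.6, 524 and 503.6 with TM, and 200, 556.3 and 594.8 with AMD3100. All TM libraries were below all vehicle libraries, yet FBLN1 was called lower only without AMD3100 replicate 1 (log2 -0.15, adjusted p = 0.88 with it and 0.00202 without). THBS1 was at 22.3, 19.01 and 20.1 CPM in vehicle and 31.6, 30 and 37.2 with TM (log2 0.69, adjusted p = 0.139 with and 1.76e-07 without that library). SERPINH1 was at 546.0, 522.8 and 537.0 CPM in vehicle, 364.2, 378.5 and 360.7 with TM, and 366.9, 560.2 and 610.2 with AMD3100. It was lower in every TM library than in every vehicle library (log2 -0.54 ± 0.17, adjusted p = 0.0932, and called lower at 6.04e-12 without AMD3100 replicate 1). COL7A1 was above vehicle in every TM library, at 52.1, 46.4 and 56.8 CPM in vehicle and 85.6, 85.3 and 89.3 with TM (log2 0.75, adjusted p = 0.136, and called higher at 7.83e-11 without that library). The remaining calls made without that library were rises of COL6A1, COL6A3 (at most 24 counts in a library) and FBN1 and falls of COL4A5, COL15A1 and FN1. The small proteoglycan DCN, also at most 24 counts in a library, was not called with TM (log2 -2.37, adjusted p = 0.507 with that library and 0.163 without). Leaving out any 1 of the 6 vehicle or TM libraries ended the calls of COL1A1 (adjusted p from 0.0575 to 0.0734), LAMB3 (0.113 to 0.136), COL12A1 (0.0846 to 0.118) and TNC (0.079 to 0.177). LAMA3 lost its call without any 1 of 5 of them (0.0647 to 0.114) and kept it without vehicle replicate 3.

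AMD3100 alone changed no member of HCC1937 against vehicle in the fit of all 9 libraries, where 0% of tested genes were called by edgeR, 951 genes had an unadjusted p under 0.05 and DESeq2 called 39. By libraries 2 members lay wholly above vehicle and 2 wholly below it, beside 4.2% and 7.15% of all tested genes (11.4% in all). Leaving AMD3100 replicate 1 out of this count, which makes separation of 2 from 3 libraries easier, put 9 of 26 members above and 4 below, beside 18.2% and 18.1% (36.4% in all). Without AMD3100 replicate 1, which leaves 2 AMD3100 libraries, 5 members were higher and 1 lower, beside 8.14% of all tested genes (5.39% higher, 2.76% lower). LAMB3 rose by 0.50 ± 0.05 log2 units (adjusted p = 7.73e-07), COL5A1 by 0.25, COL7A1 by 0.23, COL4A2 by 0.17 and SERPINH1 by 0.15, and COL4A5, a type IV chain of specialised basement membranes, fell by 0.30 (adjusted p = 0.0268). For COL5A1, COL7A1, COL4A2 and SERPINH1 this reversed the sign found with all 9 libraries, which were -0.12, -0.07, -0.18 and -0.06. AMD3100 replicate 1 was at 58.0 CPM for COL5A1 and 64.0 for COL4A2, against 165.8 and 169.5, and 164.4 and 163.6, in replicates 2 and 3.

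Between the 2 compounds given at 10 µM, AMD3100 against TM, 5 of 25 tested members were called and 8.22% of all tested genes (4.61% higher, 3.6% lower). COL1A1 (log2 -0.60 ± 0.11, adjusted p = 0.0149), LAMB3 (-1.105 ± 0.276, adjusted p = 0.0427), COL16A1 (-1.38 ± 0.21, adjusted p = 0.0062) and COL17A1 (-0.99 ± 0.15, adjusted p = 0.00733) were lower with AMD3100, and LAMA3 was higher (0.51 ± 0.12, adjusted p = 0.0342). Leaving out any 1 TM library ended the calls of COL1A1 (adjusted p from 0.0652 to 0.0704), LAMB3 (0.149 to 0.154) and LAMA3 (0.0894 to 0.161). Without AMD3100 replicate 2 LAMB3 (0.0682) and LAMA3 (0.0797) were not called, nor was LAMA3 without AMD3100 replicate 3 (0.0773), and in a fit of the AMD3100 and TM groups alone none of the 5 was called. This comparison shares its TM libraries with that of TM against vehicle. Without AMD3100 replicate 1, 7 of 26 members were higher and 9 lower, and 36.5% of all tested genes were called (19.7% higher, 16.8% lower). In it the LAMB3 difference was -0.78, and COL12A1 (0.79, adjusted p = 1.37e-11) and SERPINH1 (0.69, adjusted p = 4.47e-13) were higher with AMD3100. In the fit of all 9 libraries 4 members lay wholly above TM and 8 wholly below it, beside 14.2% and 19.4% of all tested genes (33.6% in all). Without AMD3100 replicate 1 this was 8 above and 9 below of 26, beside 27.2% and 29.6% (56.8% in all). The higher share of all called genes was 56.2%, and 40.6% with total-count scaling.

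In HCC1937 the summed epithelial markers were 2432 to 2530 CPM in vehicle, 1886 to 1929 with TM and 1928 to 2464 with AMD3100. Of the 8 genes in this list, 5 were under 1 CPM in vehicle, and the sum does not stand for each gene. Among its 5 tested genes, 3 lay wholly above vehicle with TM and 2 wholly below, beside 25.2% and 26.4% of all tested genes. The median log2 change of these 5 was 1.03. AMD3100 replicate 1 had the highest mesenchymal sum of the line, 914.5 CPM against 340.3 to 444.8. The part of either list in the matrix results was not tested.

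**Figure D5:**
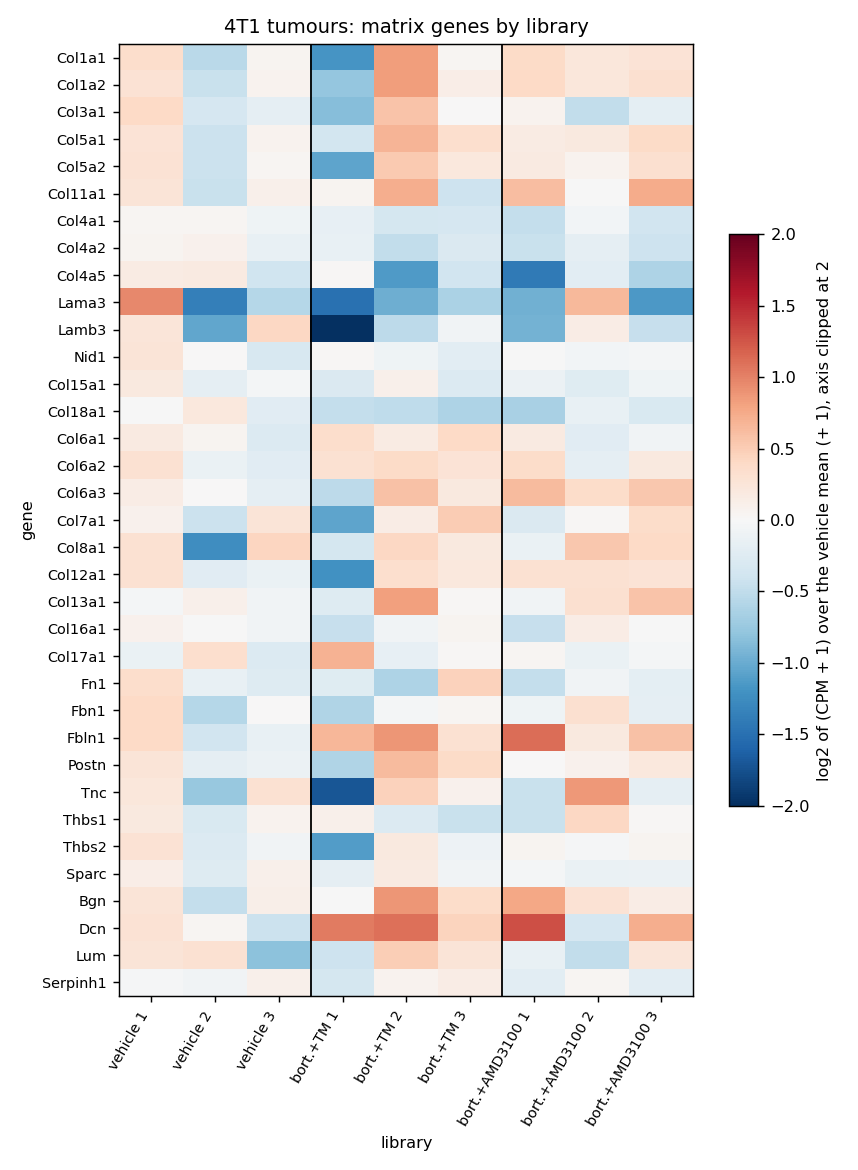
Colour map of the 35 members (rows, by role) in the 9 tumours of 4T1 (columns, by group), each cell the log2 of CPM + 1 over the vehicle mean, with colours limited at 2 either way. Bortezomib plus TM replicate 1 is low for Col1a1, Col5a2, Lamb3, Tnc and Col12a1, and Col4a1, Col4a2 and Col18a1 lie below vehicle in all 3 tumours given bortezomib plus TM.

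In the 4T1 tumours none of the 35 members was called in any of the 3 comparisons, and neither was any other gene (0% of tested genes by edgeR). At an unadjusted p under 0.05 there were 688 genes for bortezomib plus TM against vehicle, 1144 for bortezomib plus AMD3100 against vehicle and 454 between the treated arms, and DESeq2 called 3, 17 and 6. The median log2 changes of the members were 0.01, 0.04 and 0.05, beside 0.00, 0.01 and 0.01 over all tested genes (0.00274, 0.00608 and 0.0118). In bulk tumours fewer cells of a type and less RNA per cell cannot be told apart.

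Fibronectin had the highest CPM of the members in the tumours, on a scale that is not corrected for gene length. Fn1 was at 15450, 10920 and 10120 CPM in vehicle, 10280, 7890 and 16660 with TM, and 8715, 11550 and 10570 with AMD3100, and the groups overlapped throughout. Sparc was at 1042, 793.9 and 1025 CPM in vehicle, 840.1, 1080 and 904.0 with TM, and 932.2, 871.5 and 878.8 with AMD3100, again with overlap. Serpinh1, which rose in treated MDA-MB-231, was at 620.2, 603.0 and 675.6 CPM in vehicle, 493.3, 665.8 and 704.2 with TM, and 548.2, 649.3 and 544.7 with AMD3100. Its log2 changes were -0.03 and -0.12, with adjusted p of 0.983 and 0.83.

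Fibrillar collagens ranged widely within groups. Col1a1 was at 1957, 1057 and 1604 CPM in vehicle, 678.2, 2762 and 1582 with TM, and 2007, 1797 and 1854 with AMD3100. Col3a1, the type III chain of reticular fibres, was at 1495, 897.0 and 1002 CPM in vehicle, 624.3, 1676 and 1134 with TM, and 1186, 801.0 and 988.5 with AMD3100. In the TM group, replicate 1 was lowest and replicate 2 highest for both genes. The summed fibrillar collagens of bortezomib plus TM replicate 1 were 2184 CPM, the lowest of the 9 tumours. Its summed fibroblast markers were 483.1 CPM, the highest of the 9 but close to 481.8 in bortezomib plus AMD3100 replicate 1. It also had the lowest mesenchymal sum (3106 CPM) and the highest endothelial and adipocyte sums (381.8 and 187.2 CPM). The part of these markers was not tested. The same tumour had the lowest Tnc (150.2 CPM) and Lamb3 (11.1 CPM) of all 9.

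The basement membrane group held 3 of the 4 members that lay wholly on one side of vehicle with TM. Col4a1 was at 964.5, 959.2 and 879.5 CPM in vehicle, 835.2, 728.5 and 742.4 with TM, and 674.6, 896.0 and 717.1 with AMD3100. Col4a2 was at 641.5, 650.9 and 557.0 CPM in vehicle, 556.6, 438.5 and 505.0 with TM, and 454.1, 546.2 and 464.8 with AMD3100. Col18a1 was at 671.9, 779.6 and 578.0 CPM in vehicle, 487.9, 478.0 and 439.0 with TM, and 431.8, 611.9 and 548.9 with AMD3100. In the TM tumours all 3 genes were below every vehicle tumour, by 0.28 ± 0.14, 0.30 ± 0.13 and 0.53 ± 0.16 log2 units, and with AMD3100 this held for Col4a2 only (-0.34 ± 0.13). None was called, with adjusted p of 0.887 for each with TM and 0.634 with AMD3100. Members wholly below vehicle were thus 3 of 35 with TM and 1 with AMD3100, beside 5.01% and 7.34% of all tested genes. Summed over the group, the basement membrane genes were at 2651, 2646 and 2327 CPM in vehicle, 2094, 1907 and 1955 with TM, and 1792, 2358 and 1991 with AMD3100. The TM sums lay below vehicle and the AMD3100 sums overlapped it. The summed macrophage markers lay below vehicle in both arms, at 1603 to 1698 CPM in vehicle, 836.1 to 1443 with TM and 1032 to 1330 with AMD3100. The endothelial markers overlapped, at 235.1 to 327.6, 158.0 to 381.8 and 177.4 to 348.7 CPM, and so did the epithelial markers with TM (1475 to 2401 CPM in vehicle, 1077 to 1927) but not with AMD3100 (977.3 to 1257). B cell markers ran from 1.582 to 581.6 CPM over the 9 tumours. The part of these markers in the matrix levels was not tested.

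The remaining members that lay wholly on one side of vehicle were Dcn and Col6a3. Dcn (decorin, a small proteoglycan that binds collagen fibrils) was at 61.1, 51.2 and 36.6 CPM in vehicle, 103.3, 107.8 and 68.3 with TM, and 122.8, 38.9 and 82.9 with AMD3100. It was 1.88-fold higher with TM without a call (log2 0.91 ± 0.37, adjusted p = 0.887), and with AMD3100 it overlapped vehicle. Bgn (biglycan), a related small proteoglycan, was at 309.8, 184.8 and 279.6 CPM in vehicle, 255.7, 474.3 and 335.0 with TM, and 442.7, 316.8 and 286.9 with AMD3100. Col6a3 was at 198.6, 181.4 and 158.6 CPM in vehicle, 123.9, 268.9 and 205.4 with TM, and 278.4, 231.3 and 262.4 with AMD3100, 1.43-fold higher with AMD3100 without a call (log2 0.52 ± 0.24, adjusted p = 0.634). Members wholly above vehicle were 1 of 35 in each arm, beside 4.96% and 6.02% of all tested genes, which makes 9.97% and 13.4% of all genes on either side. Between the treated arms no member was wholly on one side, beside 7.37% of all tested genes. Col7a1 (864.9, 608.8 and 981.6 CPM in vehicle, 393.2, 905.4 and 1169 with TM, 668.7, 834.7 and 1060 with AMD3100) and Col6a1 (357.3, 329.1 and 260.2, then 401.3, 353.3 and 416.0, then 358.4, 269.1 and 302.0) had the highest CPM among the other collagens, and their treated groups overlapped vehicle.

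Chain ratios were also taken within each tumour. Col4a1 per Col4a2 count was 1.47 to 1.58 in vehicle, 1.47 to 1.66 with TM and 1.49 to 1.64 with AMD3100, and the groups overlapped (exact permutation p = 0.9 and 0.6 against vehicle). Col6a2 per Col6a1 count was 0.419 to 0.524 in vehicle, 0.441 to 0.559 with TM and 0.494 to 0.571 with AMD3100. Col6a3 per Col6a1 was 0.556, 0.551 and 0.609 in vehicle and 0.777, 0.859 and 0.869 with AMD3100, 1.46 times the vehicle mean. With TM it ranged widely, at 0.309, 0.761 and 0.494. Col1a1 per Col3a1 was 1.31, 1.18 and 1.60 in vehicle and 1.69, 2.24 and 1.88 with AMD3100, 1.42 times the vehicle mean. With TM it was 1.09, 1.65 and 1.39. Col5a1 per Col5a2 was 1.29, 1.31 and 1.33 in vehicle and 2.13, 1.47 and 1.43 with TM, 1.27 times the vehicle mean. With AMD3100 it was 1.30, 1.42 and 1.36. For the last 3 ratios the group given with a multiple did not overlap vehicle, and the other treated group did. Where the groups did not overlap, the exact permutation p was 0.1, or 0.231 adjusted over the 30 ratios.

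Of the 25 members tested in both models given bortezomib, 1 lay wholly on the same side of vehicle in both with TM and 0 with AMD3100. Over the 10850 genes tested in both and matched by symbol, the shares were 3% (1.32% above, 1.68% below) and 3.94% (1.66% above, 2.29% below). COL4A1 under bortezomib plus TM was below vehicle in MDA-MB-231 (log2 -0.80, called) and in the 4T1 tumours (Col4a1, log2 -0.28, not called).

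Other genes of matrix biology were counted from 5 lists, to be read beside the 51.7% and 46.5% of all tested genes called in the 2 arms of MDA-MB-231. In MDA-MB-231 with bortezomib plus TM, 7 of 10 tested basement membrane partners fell and 3 rose, led by LAMA5, a laminin alpha chain (from 277.9 to 37.7 CPM) and AGRN (agrin, from 366.7 to 63.3 CPM). Of 22 collagen processing genes 7 rose and 4 fell, led by rises of P4HA2, a prolyl 4-hydroxylase subunit (from 38.5 to 179.9 CPM, adjusted p = 7.26e-08), and PPIB, a prolyl isomerase of the endoplasmic reticulum (from 171.0 to 485.7 CPM). Of 18 matrix receptors 5 rose and 7 fell, led by SDC4 (syndecan-4, from 88.3 to 265.4 CPM) and DAG1 (dystroglycan, from 258.0 to 75.5 CPM). Of 19 proteases and inhibitors 7 rose and 3 fell, led by PLAU (urokinase, from 215.2 to 67.8 CPM) and ADAMTS1 (from 5.58 to 26.7 CPM). Of 19 genes of the TGF-beta pathway, a main inducer of matrix genes, 3 rose and 10 fell, led by falls of SMAD3, a signal transducer of that pathway (from 250.7 to 85.8 CPM), and LTBP1, which stores latent TGF-beta in the matrix (from 22.02 to 4.23 CPM). With bortezomib plus AMD3100 the counts higher and lower were 2 and 5, 8 and 2, 5 and 6, 7 and 2, and 3 and 9 in the same order of lists, with the same leading genes except that ITGB4 (the beta-4 integrin that binds laminin-332, from 53.2 to 5.60 CPM) led the receptors beside SDC4.

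In HCC1937 7.07% of all tested genes were called with TM against vehicle (40.8% without AMD3100 replicate 1). With TM, 4 of 13 basement membrane partners fell and none rose, led by LAMB1 (from 123.9 to 80.8 CPM, adjusted p = 0.00459) and LAMA1 (from 670.0 to 360.9 CPM, adjusted p = 0.00466). Collagen processing genes rose in 3 of 20 and fell in none, led by P4HA2 (from 27.6 to 48.1 CPM) and P3H2 (from 54.9 to 79.0 CPM). Matrix receptors rose in 4 of 21 and fell in 1, led by SDC4 (from 51.9 to 75.3 CPM) and CD44, the hyaluronan receptor (from 127.3 to 209.6 CPM). Proteases and inhibitors rose in 4 of 16, led by PLAUR, the urokinase receptor (from 30.4 to 69.4 CPM), and TIMP3 (from 145.1 to 259.4 CPM). TGF-beta pathway genes rose in 3 of 19, led by CCN2, a connective tissue growth factor (from 4.05 to 22.01 CPM, adjusted p = 8.97e-05), and PMEPA1 (from 33.7 to 60.1 CPM). Without AMD3100 replicate 1 the counts higher and lower were 0 and 9, 7 and 7, 9 and 8, 12 and 1, and 11 and 2 in that order. With AMD3100 against TM they were 4 and 0, 0 and 2, 2 and 3, 0 and 5, and 0 and 5 with all libraries, beside 8.22% of all tested genes, and 8 and 0, 5 and 8, 6 and 9, 1 and 10, and 2 and 12 without AMD3100 replicate 1, beside 36.5%. AMD3100 against vehicle gave no call in these lists with all libraries, and without AMD3100 replicate 1 the counts were 0 and 1, 2 and 1, 4 and 2, 2 and 0, and 2 and 1, beside 8.14% of all tested genes. In the 4T1 tumours no gene of the 5 lists was called, out of 14, 23, 21, 21 and 20 tested.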

How the data were processed

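Gene-level counts were used as deposited by the authors, in 1 table per dataset. Per the labels, libraries were made from poly-A enriched mRNA and sequenced as NovaSeq paired-end reads. The submitters' processing notes name featureCounts 2.0.1, MultiQC 1.11 and the builds GRCh38 and GRCm38, while no aligner, annotation or strand setting is given in the sources used here. The human tables held 78932 identifiers, of which 61481 had a symbol. Gene lengths are a deposited column of the human tables, of which the unit was taken as bases. Each dataset was fitted on its own over its 9 libraries with edgeR 4.0.16 (quasi-likelihood test, filterByExpr, TMM) in R 4.3.3, with Benjamini-Hochberg adjustment over all tested genes and a threshold of 0.05. CPM are scaled by TMM, SE is the absolute log2 change over the square root of F, and SD is over 3 libraries. The scripts were tested on simulated data with known changes.

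The members, lists, tests and the rule for named genes were chosen with earlier results of these data known. Every member called in a fit of all libraries is given by library. For role groups with fewer than 2 calls, the 2 members with the highest CPM are given by library in many cases. The small proteoglycans of the human lines are not. Each further list is represented by its 2 called genes of lowest p. Alternatives were DESeq2 size factors, no low-count filter, DESeq2 1.42.0, the replicate number as a block, the compared groups alone, a threshold of 0.01, total-count CPM and leaving out each library. Total-count scaling in the fit, removal of a trend of counts with gene length and chain ratios within a library were added after seeing the data. Promoter windows came from RefSeq on GRCh38.p14, and 27 of 35 members matched.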

Additional observations from a re-analysis of the deposited data

How the results depend on the processing

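Calls of single members rest on few libraries in HCC1937 and on 3 libraries per group throughout. For TM against vehicle in HCC1937, 7 members were called in the main fit, 3 with the replicate block, 16 with the compared groups alone, 2 at an adjusted p under 0.01 and 2 to 17 when 1 library was left out. Over all genes the 1376 calls became 2668 with DESeq2, 718 with the block, 8336 with the compared groups alone, 491 at 0.01 and 406 to 8318 with 1 library left out, and without the low-count filter 663 were higher and 576 lower. For AMD3100 against vehicle the 0 member calls became up to 6, and the 0 calls over all genes became 161 without the filter, 39 with DESeq2, 3 with the length trend removed and up to 1661 with 1 library left out. For AMD3100 against TM the 5 member calls became 10 with DESeq2, 3 with the block, 0 with the compared groups alone, 2 at 0.01 and 2 to 16 with 1 library left out, and the 1599 calls over all genes became 3205, 725, 252, 430 and 373 to 7442. Over the fits with 1 library left out, the change of AMD3100 against TM ran from -0.31 to 0.23 for COL4A2, -0.28 to 0.32 for COL5A1 and -0.43 to 0.20 for FBLN1, and that against vehicle from -0.39 to 0.17 for COL4A2, -0.36 to 0.25 for COL5A1, -0.25 to 0.23 for COL7A1 and -0.22 to 0.15 for SERPINH1, the positive values being those without AMD3100 replicate 1.

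In MDA-MB-231 the 14 and 10 member calls against vehicle became 13 to 15 and 10 to 11 with 1 library left out, and 20 and 18 with total-count scaling. Between the arms the 0 member calls became 3 without the filter (COL12A1, FN1 and THBS1), 1 with DESeq2 and up to 1 with 1 library left out, and the 0 calls over all genes became 177, 70 and up to 183. In 4T1 no setting called a member, and over all genes DESeq2 called 3, 17 and 6, the compared groups alone 1 for the AMD3100 arm, and leaving out 1 tumour at most 1. With total-count CPM the summed members moved to 1945 for HCC1937 TM, and to 2337 for vehicle and 1915 for bortezomib plus TM in MDA-MB-231. LAMB3 in MDA-MB-231 with TM also missed the threshold with DESeq2 size factors (adjusted p = 0.0743) and with DESeq2 (0.0786). The cause of these changes was not tested.

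Deviations from the group mean were correlated between libraries of different groups. With the same replicate number the correlations ran from -0.0374 to 0.0368 in HCC1937, -0.324 to 0.287 in MDA-MB-231 and -0.468 to 0.597 in 4T1. With different numbers they ran from -0.0481 to 0.0516, -0.351 to 0.308 and -0.631 to 0.663. Deviations within a group of 3 libraries constrain each other, so these values cannot decide whether the numbers pair the libraries. With the replicate block 14 and 10 members were called in MDA-MB-231 and 0 in 4T1.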
